A study of Homo sapiens with 6 samples.

Results

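The genes described here are 10 integrin subunits: ITGA8, ITGA4, ITGA5, ITGA6, ITGA9, ITGAV, ITGB1, ITGB3, ITGB5 and ITGB8. They are 10 of 59653 gene symbols in the count table and 10 of its 26 integrin subunit genes. Of these members, 6 are alpha and 4 are beta subunits. The list was drawn up around ITGA8, which was already known to be among the largest increases after SOX2 siRNA in these libraries, so the difference between the groups is given for the members as a description. No p-value is printed for a member, and the number called in the fit over all genes is given once, beside the share of all genes called.

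The libraries came from PA1, an established human cell line from an ovarian teratocarcinoma, labelled wildtype. The attached cells received either a negative control small interfering RNA (siRNA) or siRNA directed at the transcription factor SOX2. The labels name 2 SOX2 siRNAs without saying whether they were pooled. After 24 h both groups went onto poly-HEMA, a coating to which cells cannot attach, and RNA was collected 72 h later, so every library, controls included, comes from cells that had lost their attachment to a substrate. Each group has 3 libraries, numbered 1 to 3. The labels do not say whether these were separate cultures, and p-values therefore measure only the spread between these libraries.

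Integrins are cell surface receptors made of 1 alpha and 1 beta subunit, and the pairing decides which matrix protein is bound. ITGA5, ITGA8 and ITGAV belong to receptors that recognise the tripeptide Arg-Gly-Asp (RGD) in fibronectin, vitronectin, nephronectin and related proteins. ITGA6 belongs to laminin receptors, and ITGA4 and ITGA9 form a separate pair of related subunits that bind fibronectin variants, tenascin-C and other ligands. ITGB1 is the shared beta chain: ITGA8 has no other known partner, whereas ITGAV also pairs with ITGB3, ITGB5 and ITGB8. In pluripotent and embryonal carcinoma cells, laminin receptors that hold ITGA6 and ITGB1 are a main means of adhesion, and ITGA8 is best known from kidney mesenchyme, smooth muscle and the developing nervous system.

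Depth ran from 25152313 to 32753184 counts per library. Levels are given in CPM, counts relative to a library size scaled by TMM (trimmed mean of M-values), and 3 counts, taken as a floor for counting error only, equalled 0.0909 to 0.120 CPM. SOX2 itself fell from 255 ± 10.1 CPM in control to 52.5 ± 2.21 CPM (SD, n = 3), a log2 fold change of -2.28 (edgeR quasi-likelihood test, adjusted p = 5.97e-16). Of 10 markers of embryonal teratocarcinoma, 9 were tested, 4 rose and 2 fell, beside 28.2% of all tested genes called. The 2 that fell were SOX2 itself and PODXL, which went from 1316 ± 15.0 to 671 ± 25.1 CPM (SD, n = 3). The 10 markers summed to 3102 to 3150 CPM in control and 2862 to 2913 CPM in SOX2 siRNA libraries. Without SOX2 they summed to 2837 to 2894 and 2810 to 2863 CPM. Group means of LIN28A, LIN28B, POU5F1 and SALL4 were at least 144 CPM, whereas DPPA4 and L1TD1 were scarce, at 3.05 CPM or less, and TDGF1 had at most 3 counts in each library.

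ITGA8 was the member with the largest difference. The 3 control libraries held 155, 117 and 191 reads assigned to it, and the 3 SOX2 siRNA libraries held 1494, 1672 and 1509. On the CPM scale these were 4.70, 4.67 and 6.61 in control and 49.5, 51.7 and 50.5 after SOX2 siRNA. The groups lay far apart: the highest control library, replicate 3, was well under the lowest SOX2 siRNA library, and the SOX2 siRNA libraries lay close together. The mean rose from 5.32 ± 1.11 to 50.6 ± 1.11 CPM (SD, n = 3), a ratio of 9.50 and a log2 fold change of 3.25 (SE 0.0930). ITGA8 lies at chr10:15513949-15720125 on the minus strand (GENCODE 29, GRCh38; ENSG00000077943.7), and its principal transcript has 30 exons. Its exons overlap no other annotated gene.

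Among 17592 tested genes ITGA8 ranked 15 by log2 fold change, counted from the highest. Among the 12119 better expressed genes (average log2 CPM 2 or more) it ranked 2, below RGS8, a regulator of G-protein signalling (log2 fold change 3.38), and above FRZB, a secreted Wnt antagonist (3.21). The SE of ITGA8 was 0.0930 against 0.147 for RGS8 and 0.0603 for FRZB, so these neighbours in the order do not differ beyond their errors. By distance between log2 CPM values centred per gene over the 6 libraries, the 5 genes most like ITGA8 were FRZB (distance 0.438), RGS8 (0.457), EOMES (0.522), MARCHF4 (0.623) and MEOX1 (0.998), among 12111 genes compared. EOMES, a T-box transcription factor, went from 4.57 ± 0.330 to 34.5 ± 2.14 CPM. FRZB went from 11.5 ± 0.918 to 107 ± 5.42 CPM (SD, n = 3). These genes were found by the same difference between groups that singled out ITGA8, so their values are a description.

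ITGA8 is also transcribed in smooth muscle and other mesenchymal cells, and markers of other cell types were read beside it. The 10 fibroblast and smooth muscle markers summed to between 401 and 455 CPM in control and between 568 and 614 CPM in SOX2 siRNA libraries. Of the 7 that were tested, 2 rose, PDGFRB and COL1A1, and none fell. PDGFRB went from 28.6 ± 0.999 to 106 ± 0.388 CPM (log2 fold change 1.89; edgeR adjusted p = 2.68e-15). The smooth muscle genes ACTA2 (24.5 ± 0.565 and 24.8 ± 1.12 CPM) and TAGLN (81.3 ± 5.12 and 78.8 ± 5.34 CPM) did not pass the test, and COL3A1, DCN and MYH11 were too low to be tested, with group means of 0.281 CPM or less. The 6 endothelial markers summed to 143 to 148 CPM in control and 116 to 118 CPM after SOX2 siRNA, with 5 lower and 1, TIE1, higher. The 6 epithelial markers summed to 344 to 387 and 476 to 512 CPM, where KRT8 and KRT18 rose. EPCAM (2.09 ± 1.47 and 2.09 ± 1.46 CPM) and CDH1 (1.29 ± 0.246 and 1.37 ± 0.166 CPM) were scarce and did not pass the test. KRT5 had at most 3 counts in any library and KRT14 had 0. The 7 leukocyte markers summed to 8.62 to 9.36 and 12.1 to 12.7 CPM, of which 3 were tested and 2, LCP1 and CD14, rose, and PTPRC and CD3E had at most 3 counts in any library. Beside these marker counts, 14.8% of all tested genes were called higher and 13.4% lower. The part of these markers in the ITGA8 result was not tested. In RNA from whole cultures, more cells that hold a transcript and more transcript per cell cannot be told apart.

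ITGA5, the alpha chain of the classical fibronectin receptor, stood at 61.6, 58.6 and 65.7 CPM in control and 98.5, 91.8 and 88.9 CPM in SOX2 siRNA replicates 1 to 3. All SOX2 siRNA libraries were above all control libraries. The mean went from 61.97 ± 3.56 to 93.1 ± 4.95 CPM (SD, n = 3), 150.2% of the control level, and a log2 fold change of 0.59 (SE 0.0499). ITGA5 lies at chr12:54395261-54419460 on the minus strand.

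ITGAV, the alpha chain of the vitronectin receptors and the most versatile partner of the beta subunits, stood at 319, 338 and 363 CPM in control and 319, 337 and 349 CPM after SOX2 siRNA. The groups overlapped almost completely, and the lowest library of each had nearly the same level. The means were 340 ± 22.1 and 335 ± 14.99 CPM (SD, n = 3), and the log2 fold change was -0.02 (SE 0.0470). Thus the RGD-binding alpha chains differed in how they moved: ITGA8 by 3.25, ITGA5 by 0.59 and ITGAV by -0.02 on the log2 scale. ITGAV lies at chr2:186590065-186680901 on the plus strand.

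ITGA6, the laminin-binding alpha chain and a common surface marker of stem and progenitor cells, stood at 349, 361 and 355 CPM in control and 185, 182 and 177 CPM after SOX2 siRNA. The replicates of each group lay within a few percent of each other and the groups were clearly apart. Mean ITGA6 went from 355 ± 6.46 to 181 ± 3.90 CPM (SD, n = 3), which is 51.1% of the control level, with a log2 fold change of -0.97 (SE 0.0346). ITGA6 lies at chr2:172427354-172506282 on the plus strand, and 3 antisense genes of GENCODE 29 share up to 2.66% of its exon bases.

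ITGA9, the tenascin-C receptor chain, stood at 30.8, 36.2 and 33.3 CPM in control and 26.4, 29.2 and 29.2 CPM after SOX2 siRNA. The groups did not overlap, but control replicate 1 lay only a little above the highest SOX2 siRNA library. The mean went from 33.4 ± 2.73 to 28.3 ± 1.63 CPM (SD, n = 3), with a log2 fold change of -0.24 (SE 0.0640). Without control replicate 2 the log2 fold change was -0.18. ITGA9 lies at chr3:37452115-37823514 on the plus strand, and 6.46% of its exon bases overlap the antisense gene ITGA9-AS1. That antisense gene moved the other way, from 3.88 ± 0.211 to 6.31 ± 0.856 CPM (SD, n = 3), a log2 fold change of 0.70 (edgeR adjusted p = 3.22e-04). Whether the counting used strand is not given in the sources used here, so reads in the shared bases cannot be assigned with certainty.

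ITGA4, the leukocyte and neural crest relative of ITGA9, was at 0, 1 and 2 counts in the control libraries and at 0 in every SOX2 siRNA library. All of these are under the floor of 3 counts, and a count of 0 in the SOX2 siRNA libraries allows up to 0.0928 to 0.100 CPM. ITGA4 did not pass the filter on low counts and has no fold change. It lies at chr2:181457202-181536187 on the plus strand.

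**Figure D1:**
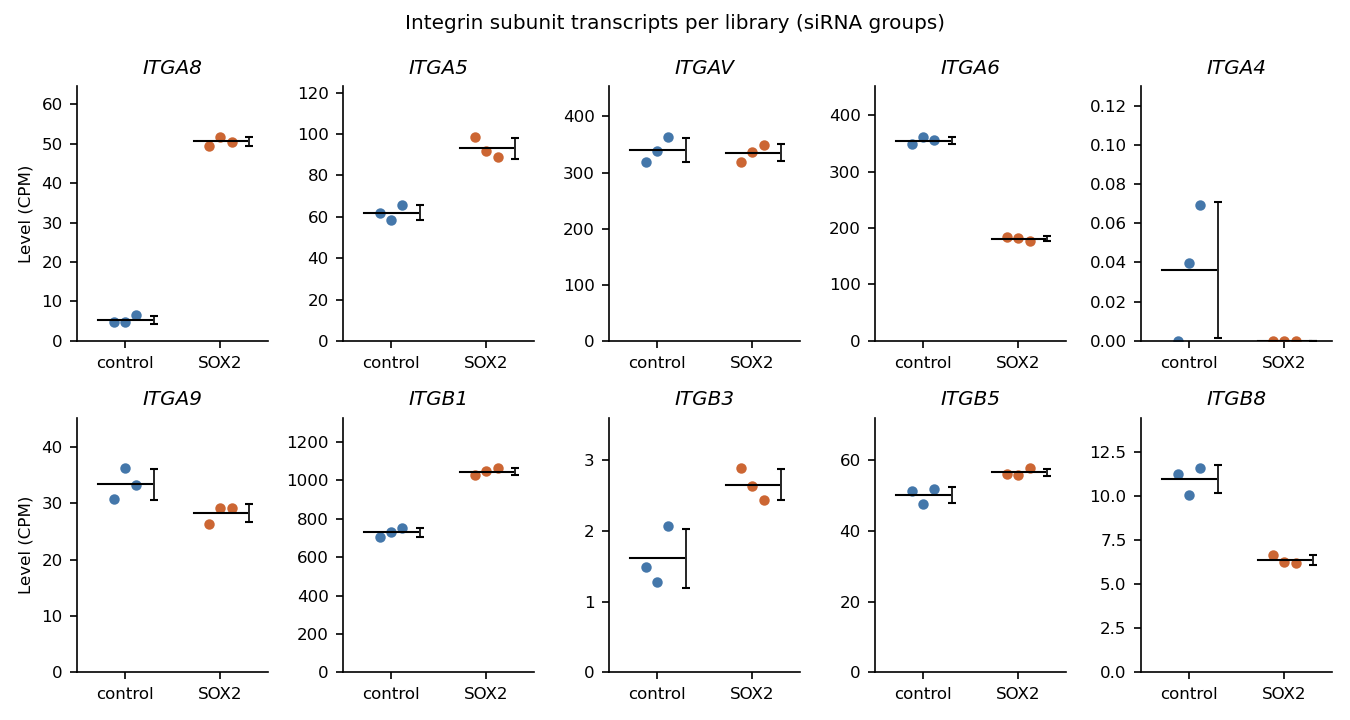
Level of each of the 10 integrin subunit transcripts in CPM (vertical axes, linear, each starting at 0 with its own scale) in the 3 control siRNA and 3 SOX2 siRNA libraries. Points are libraries and the lines mark group means and SD. ITGA8 goes from about 5.32 to 50.6 CPM, ITGA6 from 355 to 181 CPM, and ITGAV overlaps between the groups.

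The short sequences that follow come from ITGA8 and ITGA6, shown because their promoter windows were those found to hold a SOX core motif. SOX proteins bind a short core in DNA, written here as ATTGT or TTTGT and searched on both strands in the 250 bases before the RefSeq start (table of build GRCh38.p14). Of the 10 members, 8 had a window in the table. For ITGA6, ITGAV, ITGB1 and ITGB5, which had more than 1, only the window nearest to the principal GENCODE transcript's start was searched. A core was held by 2 of the 8 windows searched, those of ITGA8 and ITGA6. In both the core was of the ATTGT form, on the gene's own strand in ITGA8 and on the opposite strand in ITGA6. The stretches below give 12 bases on each side of the core, 5′ to 3′ on the gene's strand, with the core in capitals.
ITGA8: gagacgaaactgATTGTccttgagatggg
ITGA6: tactcggcaaccACAATtctgtccacaga
The ITGA8 stretch lies at chr10:15720118-15720146 on the minus strand, and its core begins 212 bases before the RefSeq start. The GENCODE 29 start of the gene, 203 bases upstream of the RefSeq start, falls inside the stretch. By GENCODE the core thus lies 5 to 9 bases before the start. The ITGA6 stretch lies at chr2:172427340-172427368 on the plus strand, and its core begins 234 bases before the RefSeq start. The outermost GENCODE start of the gene, at 172427354, falls within the core, whereas that of its principal transcript is 199 to 203 bases downstream. Of 35116 promoter windows of this length, 24.6% held ATTGT and 37.1% held TTTGT. At least 1 of them was held by 48.7% of these windows, beside 2 of the 8 member windows. That background counts every window of a gene. No core was found in the windows searched for ITGA4, ITGA5, ITGAV, ITGB1, ITGB5 and ITGB8, and further windows of ITGAV, ITGB1 and ITGB5 were not searched. These windows were rich in G and C, at 68% for ITGA8, 70% for ITGA5, 71.6% for ITGA6 and 78.4% for ITGB1, against a median of 58% over all windows. A match to such a short word is a description of the letters and does not show that a protein binds there.

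Among the beta chains, ITGB1, the obligate partner of ITGA8, was the highest member per kilobase of transcript. It stood at 706, 730 and 751 CPM in control and 1025, 1047 and 1061 CPM after SOX2 siRNA. The groups did not overlap, and the spread within each was small against the difference between them. Mean ITGB1 went from 729 ± 22.6 to 1044 ± 18.3 CPM (SD, n = 3), a ratio of 1.43 and a log2 fold change of 0.52 (SE 0.0343). ITGB1 lies at chr10:32900319-33005792 on the minus strand, on the same chromosome as ITGA8.

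ITGB3, a partner of ITGAV, was scarce. It stood at 1.48, 1.277 and 2.08 CPM in control and 2.88, 2.63 and 2.44 CPM after SOX2 siRNA, from 32 to 87 counts per library. The groups did not overlap, but control replicate 3 came close to SOX2 siRNA replicate 3. The mean went from 1.61 ± 0.414 to 2.65 ± 0.220 CPM (SD, n = 3), with a log2 fold change of 0.71 (SE 0.194), which was 0.58 without control replicate 2 and 0.93 without control replicate 3. Its level is uncertain for another reason. In GENCODE 29, 51.6% of its exon bases (2266 bases) overlap those of AC068234.1 on the same strand, a gene that did not pass the filter on low counts, and reads there may have been split or dropped in counting. ITGB3 lies at chr17:47253846-47311816 on the plus strand.

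ITGB5, the other vitronectin receptor beta chain, stood at 51.3, 47.5 and 51.8 CPM in control and 56.1, 55.8 and 57.6 CPM after SOX2 siRNA. All SOX2 siRNA libraries were higher, by a small margin. Mean ITGB5 went from 50.2 ± 2.32 to 56.5 ± 0.987 CPM (SD, n = 3), a ratio of 1.13 and a log2 fold change of 0.17 (SE 0.0461). ITGB5 lies at chr3:124761948-124901418 on the minus strand.

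ITGB8, whose receptor with ITGAV binds latent TGF-beta, stood at 11.3, 10.1 and 11.6 CPM in control and 6.69, 6.28 and 6.19 CPM after SOX2 siRNA. The groups were well apart. Mean ITGB8 went from 11.0 ± 0.790 to 6.39 ± 0.267 CPM (SD, n = 3), 58.1% of the control level, with a log2 fold change of -0.79 (SE 0.0896). Among the members, 3 beta chains pair with ITGAV but not with ITGA8. Of these, ITGB3 and ITGB5 were thus higher and ITGB8 lower after SOX2 siRNA. ITGB8 lies at chr7:20330702-20415754 on the plus strand.

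Of the 10 members, 9 passed the filter on low counts. By edgeR's quasi-likelihood test, with an adjusted p under 0.05 over all genes, 8 of these 9 were called, against 28.2% of all tested genes. The 5 called higher (ITGA8, ITGA5, ITGB1, ITGB3 and ITGB5) stand against 14.8% of all tested genes, and the 3 called lower (ITGA6, ITGA9 and ITGB8) against 13.4%. For 8 of the 9 the groups were free of overlap, against 41.8% of all tested genes. Since the members were chosen with this difference in view, nothing is read from these counts. Without control replicate 2 only 5 of the members were called, with ITGA9, ITGB3 and ITGB5 lost, and without control replicate 1 ITGB3 was lost. The median log2 fold change of the 9 tested members was 0.17, and that of all tested genes was -0.00085.

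**Figure D2:**
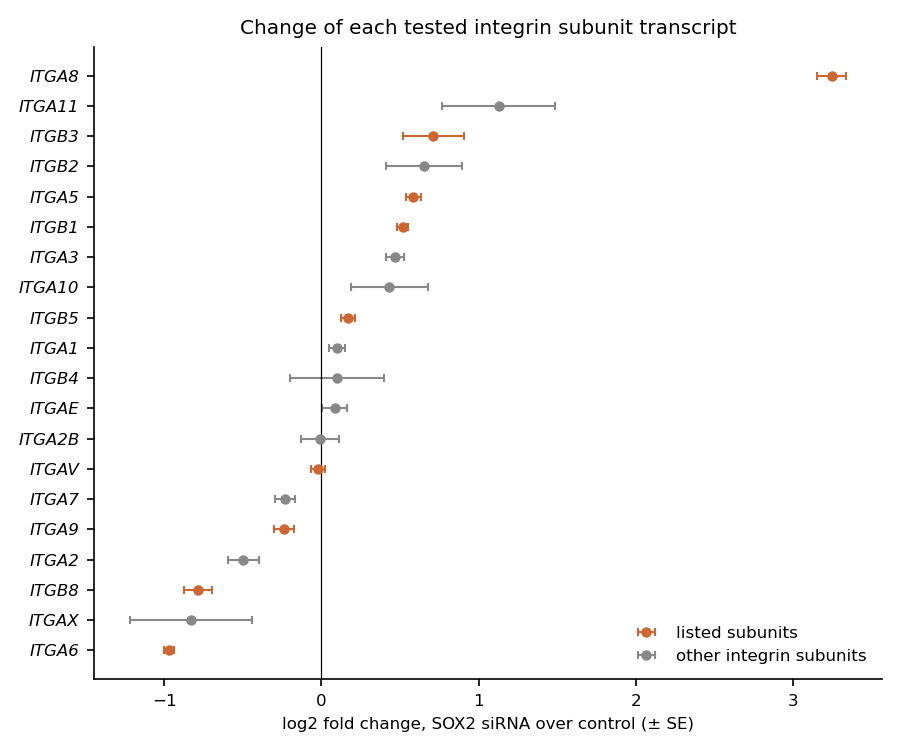
Log2 fold change of each tested integrin subunit, SOX2 siRNA over control (horizontal axis, bars ± SE), with the 9 tested members and 11 other subunits in separate colours and 1 subunit per line. ITGA8 at 3.25 stands apart from the others, which lie between -0.97 (ITGA6) and 1.13 (ITGA11).

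To compare subunits with each other, CPM was divided by the length in kilobases of each gene's principal GENCODE 29 transcript. In control libraries ITGA6 was the highest of 18 alpha subunits, at 63.2 ± 1.15 CPM per kilobase (SD, n = 3), followed by ITGAV at 48.4 ± 3.15 and ITGA5 at 13.9 ± 0.801. Their libraries did not overlap with each other. ITGA9 held rank 7 at 4.23 ± 0.346, and ITGA8 held rank 11 at 0.788 ± 0.164, not separated from ITGA2 at 0.879 ± 0.0296 just above it. ITGA4 was at rank 17.

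After SOX2 siRNA the order of the leading alpha chains was different. ITGAV was the highest at 47.7 ± 2.13 CPM per kilobase, ITGA6 followed at 32.3 ± 0.695 and ITGA5 at 20.9 ± 1.11, again without overlap between libraries. ITGA8 held rank 6 at 7.49 ± 0.165, overlapping with ITGA3 at 8.13 ± 0.534 just above it and separate from ITGA1 at 6.44 ± 0.153 just below it. ITGA9 held rank 8 at 3.58 ± 0.207, overlapping with ITGAE at 3.51 ± 0.294. With the coding length in place of the transcript length, ITGA8 went from rank 10 to rank 5, and with the merged length of all exons from rank 11 to rank 4. With merged length ITGA6 again led in control and ITGAV after SOX2 siRNA. With coding length ITGA6 and ITGAV overlapped in control, at 110.3 ± 2.01 and 108.2 ± 7.04 CPM per kilobase (SD, n = 3), with ITGAV the higher in control replicate 3, and ITGAV led after SOX2 siRNA.

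Per kilobase, ITGB1 was the highest of 8 beta subunits in both groups, at 192.8 ± 5.98 in control and 276 ± 4.83 CPM per kilobase after SOX2 siRNA. ITGB5 came next at 11.5 ± 0.530 and 12.9 ± 0.226. ITGB8 followed in control at 1.26 ± 0.0903, apart from ITGB2 and ITGB3 below it. After SOX2 siRNA, ITGB8 (0.730 ± 0.0305), ITGB2 (0.688 ± 0.0777) and ITGB3 (0.664 ± 0.0551) could not be separated, each overlapping with the next.

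ITGB1 can pair with 12 alpha subunits, ITGA1 to ITGA11 and ITGAV, and their levels per kilobase were summed in each library to see what share ITGA8 took. ITGA8 made up 0.461%, 0.447% and 0.614% of this sum in control and 5.32%, 5.58% and 5.47% in SOX2 siRNA replicates 1 to 3. Its mean share thus went from 0.507% ± 0.0925 to 5.46% ± 0.134 (SD, n = 3), and it remained a minor alpha transcript beside ITGAV, ITGA6 and ITGA5. The share of ITGA6 went from 40.8% ± 1.0002 to 23.5% ± 0.426, that of ITGA5 from 9.002% ± 0.413 to 15.3% ± 0.751 and that of ITGAV from 31.2% ± 1.16 to 34.7% ± 1.69. ITGAV therefore gained share while its own level hardly moved, as the sum of the pool was smaller. By coding length the mean shares in control and after SOX2 siRNA were 37.5% and 21.4% for ITGA6. They were 6.70% and 11.2% for ITGA5, and 36.8% and 40.5% for ITGAV.

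Grouped by ligand, the RGD-binding chains ITGA5, ITGA8 and ITGAV together went from 40.7% ± 1.40 to 55.5% ± 1.03 of the pool. The laminin-binding chains ITGA3, ITGA6 and ITGA7 together went from 51.9% ± 1.32 to 36.5% ± 1.16 (SD, n = 3). By transcript length the laminin-binding group was the larger in every control library and the RGD-binding group in every SOX2 siRNA library. By coding length the groups were close in control, at 45.3% ± 1.278 for laminin-binding and 44.0% ± 1.45 for RGD-binding chains, and in control replicate 3 the RGD-binding group was the larger. After SOX2 siRNA they stood at 30.6% ± 1.13 and 57.7% ± 1.04 by that length. The collagen-binding chains ITGA1, ITGA2, ITGA10 and ITGA11 made up 4.63% ± 0.245 and 5.46% ± 0.0986, and ITGA4 with ITGA9 made up 2.74% ± 0.206 and 2.61% ± 0.160. The ratio of ITGA6 to ITGAV per kilobase was 1.37, 1.34 and 1.22 in control and 0.723, 0.678 and 0.634 after SOX2 siRNA. By coding length it was 1.07, 1.05 and 0.955 in control and 0.565, 0.529 and 0.495 after SOX2 siRNA.

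**Figure D3:**
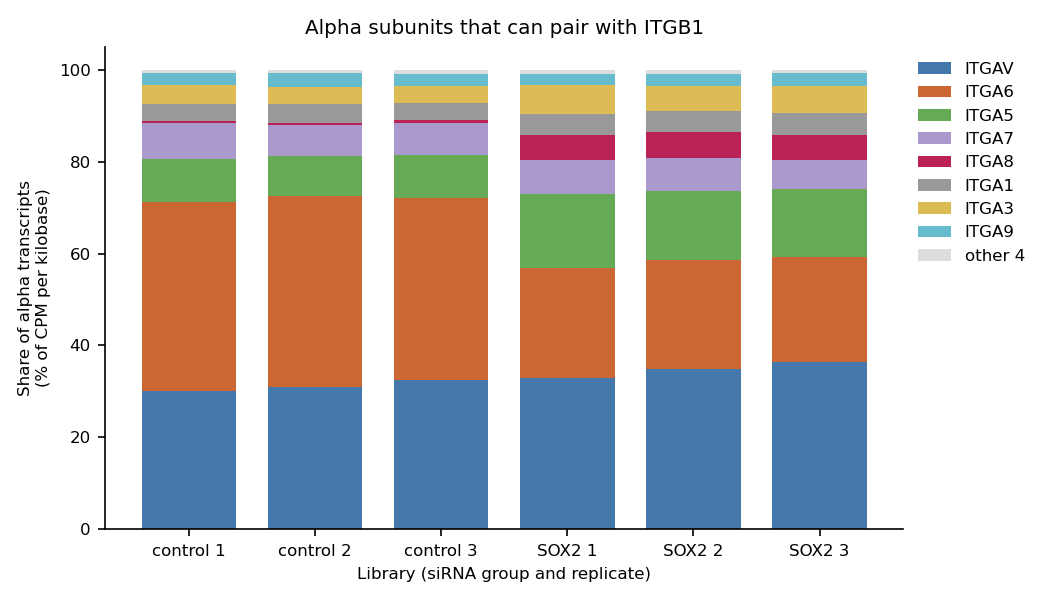
Share of each alpha subunit in the summed CPM per kilobase of the 12 alpha subunits that can pair with ITGB1 (vertical axis, percent), with 1 stacked bar per library. ITGA8 is a thin band of 0.447% to 0.614% in the control bars and a visible one of 5.32% to 5.58% in the SOX2 siRNA bars, and the ITGA6 band is narrower in the latter.

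ITGA8 was then set against its partner. The alpha pool as a whole summed to 154.9 ± 4.31 CPM per kilobase in control and 137.2 ± 0.530 after SOX2 siRNA, and without ITGA8 to 154.1 ± 4.17 and 129.7 ± 0.645. ITGB1 moved in the opposite direction. The ratio of the alpha pool to ITGB1 was 0.807, 0.801 and 0.802 in control and 0.509, 0.496 and 0.488 in SOX2 siRNA replicates 1 to 3, with little spread within either group. Its level depends on the length used. By coding length the mean ratio was 0.965 in control and 0.604 after SOX2 siRNA, and by merged exon length 1.02 and 0.610. ITGA8 alone equalled 0.408% ± 0.0738 of the ITGB1 level in control and 2.71% ± 0.0514 after SOX2 siRNA. Its level relative to ITGA5 went from 0.0562 ± 0.00867 to 0.358 ± 0.0242 (SD, n = 3). These are ratios of transcripts, and the amount of receptor at the surface was not measured.

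Of the other 16 integrin subunits, 11 were tested, 2 rose and 2 fell by edgeR's quasi-likelihood test, beside 28.2% of all tested genes called. Their median log2 fold change was 0.10, which became -0.0093 without control replicate 2 and 0.02 without SOX2 siRNA replicate 1. Without control replicate 3 only 2 of them were called. ITGA3, a laminin-binding chain, rose from 28.7 ± 1.26 to 39.7 ± 2.61 CPM (SD over 3 libraries; 0.47 on the log2 scale, edgeR adjusted p = 7.64e-06), opposite in direction to ITGA6. ITGA2, a collagen-binding chain, fell from 6.92 ± 0.233 to 4.91 ± 0.189 CPM (-0.50, edgeR adjusted p = 0.00122). ITGA7, also laminin-binding, fell from 46.5 ± 2.82 to 39.7 ± 3.47 CPM (-0.23, edgeR adjusted p = 0.0137), a call lost without control replicate 1 (0.0797) or control replicate 3 (0.0522). The scarce ITGA11 rose from 0.237 ± 0.0575 to 0.529 ± 0.0858 CPM (1.13, edgeR adjusted p = 0.0270), a call lost under DESeq2 (0.187) and without any 1 of 4 libraries, control or SOX2 siRNA replicates 2 and 3. The 7 other tested subunits ran from -0.83 (ITGAX) to 0.65 (ITGB2, edgeR adjusted p = 0.0527). ITGB6, ITGB7, ITGAD, ITGAL and ITGAM were too low to be tested.

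Ligands of the RGD-binding receptors moved in both directions. Of 14 genes listed, 10 were tested, 3 rose and 2 fell, beside 28.2% of all tested genes called. The median log2 fold change was -0.08, or -0.05 without control replicate 1 and -0.0059 without SOX2 siRNA replicate 2. FN1, which encodes fibronectin, a ligand of the receptors of ITGA5, ITGA8 and ITGAV, rose from 473 ± 34.3 to 1194 ± 77.8 CPM (SD over 3 libraries; 1.33 on the log2 scale, edgeR adjusted p = 4.56e-07). TNC, which encodes tenascin-C, a ligand of the receptors of ITGA8, ITGA9 and ITGAV, fell from 258 ± 7.82 to 110 ± 1.99 CPM (-1.23, edgeR adjusted p = 8.21e-14). TGFB1, whose latent form is bound by ITGAV receptors, rose from 32.8 ± 2.31 to 54.8 ± 3.29 CPM (0.74, edgeR adjusted p = 4.41e-08). FBN1, the microfibril protein fibrillin-1, rose by 0.28 on the log2 scale (edgeR adjusted p = 9.66e-06), and MFGE8, a bridge between ITGAV receptors and dying cells, changed by -0.15 (edgeR adjusted p = 0.0198). The MFGE8 call was lost without control replicate 1 or 2 or SOX2 siRNA replicate 2 or 3. NPNT, which encodes nephronectin, the ITGA8 ligand best known from kidney, was near the low end of detection at 0.836 ± 0.396 and 0.607 ± 0.398 CPM (SD over 3 libraries; edgeR adjusted p = 0.654). SPP1, which encodes osteopontin, stood at 391 ± 11.4 and 383 ± 35.5 CPM and did not pass the test.

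Of the 8 ligands of ITGA4 and ITGA9 receptors, 6 were tested, 2 rose and 2 fell, FN1 and TNC among them. Of all tested genes 28.2% were called. The median of 0.07 has no stable sign: it was -0.03 without control replicate 1, 0.20 without control replicate 3, -0.03 with at least 10 counts in every library and 0.31 with no filter beyond 1 count. EMILIN1, an elastic fibre protein bound by both receptors, rose from 14.4 ± 0.404 to 23.9 ± 0.822 CPM (SD over 3 libraries; 0.73 on the log2 scale, edgeR adjusted p = 7.68e-08). SVEP1, an ITGA9 ligand, fell from 21.0 ± 0.380 to 16.5 ± 0.426 CPM (-0.35, edgeR adjusted p = 2.31e-04). VCAM1 and MADCAM1, the classical ITGA4 ligands on endothelium, were too low to be tested.

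Laminin subunits are the ligands of ITGA6 receptors. Of 11 genes, 10 were tested, 2 rose and none fell, beside 14.8% called higher and 13.4% called lower among all tested genes. The median was 0.09, and 4 were called when no filter beyond 1 count was used. LAMC3 rose from 0.684 ± 0.119 to 3.28 ± 0.405 CPM (SD over 3 libraries; 2.25 on the log2 scale, edgeR adjusted p = 1.96e-07) but was a scarce laminin chain. LAMA1 changed from 188 ± 5.09 to 207 ± 5.51 CPM (0.14, edgeR adjusted p = 0.00671), a call lost without SOX2 siRNA replicate 2 (0.0555). LAMC1, the gamma chain of most laminins, was at 861 ± 29.5 and 869 ± 17.1 CPM and did not pass the test. In 3 alternatives, upper-quartile scaling, at least 10 counts in every library and leaving out SOX2 siRNA replicate 3, 1 laminin subunit was called lower.

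Inside the cell, integrin tails bind talin, kindlins and a large set of linkers and kinases. Of 49 such genes 47 were tested, 17 rose and 1 fell, beside 14.8% called higher and 13.4% called lower among all tested genes. The median was 0.09, or 0.06 without SOX2 siRNA replicate 3, against -0.00085 over all tested genes. The talins TLN1 and TLN2 and the kindlin FERMT2 rose by 0.14, 0.20 and 0.28 (edgeR adjusted p = 0.0100, 3.76e-04 and 3.98e-05). The kindlin FERMT3 did not pass the test, and FERMT1 was too low to be tested. TNS2, a tensin that binds beta tails, rose from 7.74 ± 1.01 to 20.6 ± 1.40 CPM (SD over 3 libraries; 1.40 on the log2 scale, edgeR adjusted p = 2.81e-09). ELMO1, part of a Rac activator, rose by 0.77 on the log2 scale (edgeR adjusted p = 5.50e-09). The kinase SRC and the kinase that restrains it, CSK, rose by 0.41 and 0.56 (edgeR adjusted p = 4.47e-06 and 7.46e-08). ZYX, the focal adhesion protein zyxin, fell from 129 ± 9.94 to 100.2 ± 5.84 CPM (-0.37, edgeR adjusted p = 5.39e-04). The number of genes called lower was 2 with upper-quartile scaling and without control replicate 1 or 2 or SOX2 siRNA replicate 1 or 3.

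Membrane proteins that associate with integrins were all measured: 18 of 18 were tested, 5 rose and 3 fell, beside 28.2% of all tested genes called. Their median was 0.07, or 0.03 without control replicate 2. CD47, a partner of ITGAV and ITGB3, rose from 135 ± 5.41 to 242 ± 13.3 CPM (SD over 3 libraries; 0.84 on the log2 scale, edgeR adjusted p = 2.19e-10). The syndecans SDC1, SDC2 and SDC3, heparan sulfate proteins that act together with fibronectin receptors, rose by 1.03, 0.45 and 0.49 (edgeR adjusted p = 1.57e-09, 2.10e-07 and 1.31e-08). SDC4, also a syndecan, stood at 82.9 ± 5.58 and 82.3 ± 2.71 CPM and did not pass the test (edgeR adjusted p = 0.888). The tetraspanins CD9 and CD82 changed by -0.93 and -0.33 (edgeR adjusted p = 0.0106 and 3.20e-04). The CD9 call was lost without SOX2 siRNA replicate 2 (edgeR adjusted p = 0.0531). The other listed tetraspanins, CD63, CD81 and CD151, did not pass the test (edgeR adjusted p = 0.0810, 0.602 and 0.964). The caveolar protein CAV1 changed by -0.23 (edgeR adjusted p = 0.00625).

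**Figure D4:**
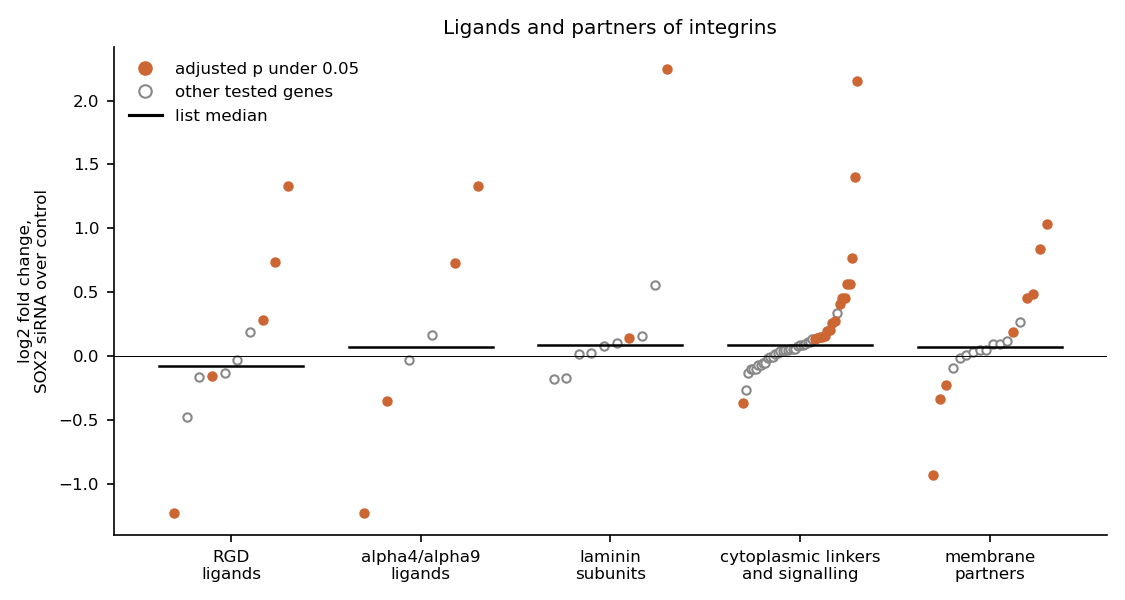
Log2 fold change, SOX2 siRNA over control (vertical axis), of each tested gene in the 5 lists of integrin ligands and partners, with filled points for genes that passed the adjusted threshold of 0.05, open points for those that did not and a line at each list's median. In the list of cytoplasmic linkers and signalling genes 17 filled points lie above 0 and 1 below, and the median lines lie between -0.08 and 0.09.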

How the data were processed

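The deposited table holds the authors' raw read counts per gene symbol, whole numbers in 1 column per library. Trizol extraction was followed by library preparation with a KAPA mRNA HyperPrep kit, per the labels' protocols. Bcl2fastq 2.20.0, STAR 2.7.3a, Salmon 0.14.1, DESeq2 1.28.1 and the build GRCh38.p13 are named in the submitters' processing notes, without their roles. The counting program, annotation and use of strand are not given in the sources used here, and isoforms are not resolved.

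Counts of the 6 libraries were analysed in R 4.3.3 with edgeR 4.0.16: filterByExpr with a minimum count of 10, TMM scaling, and the quasi-likelihood test (robust=TRUE) on group with Benjamini-Hochberg adjustment over 17592 genes and a threshold of 0.05. Replicate pairs differed by more than counting noise, with a chi-square per degree of freedom of 2.91 to 6.42. The common biological coefficient of variation was 4.67%. Lengths, exon overlaps and coordinates come from GENCODE 29, and promoter windows from RefSeq. Alternatives were DESeq2 size factors, upper-quartile scaling, other filters, DESeq2 1.42.0, limma-voom (limma 3.58.1), a replicate block, each library left out, and other gene lengths. The procedures were tested on simulated data.

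The genes named are SOX2, the members, every other subunit past the threshold and the 5 nearest to ITGA8. Added to these are the called genes of smallest p in each list (4 at most). Of genes whose exons overlap a member, ITGA9-AS1 and AC068234.1 are named. Exons of ITGA5, ITGA6, ITGAV, ITGB1 and ITGB8 also overlap genes on the opposite strand, each by 2.66% or less, which are not named. Other genes were named after their values were seen. These are RGS8 and FRZB in the order by fold change, the markers and the genes flanking ITGA8 and ITGB1. They also include ITGB2, ITGAX, MFGE8, NPNT, SPP1, VCAM1, MADCAM1, LAMC1, ZYX, CD9, CD82 and CAV1. TLN1, TLN2, FERMT1, FERMT2, FERMT3, SDC4, CD63, CD81 and CD151 were named in the same way. Members and lists were chosen with earlier results of these data known.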

Additional observations from a re-analysis of the deposited data

How the results depend on the processing

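The log2 fold change of ITGA8 ranged from 3.15 to 3.43 over 13 alternatives, and of the 9 tested members only ITGAV, not called under any of them, changed sign (-0.06 to 0.03). The number of members called was 5 to 8 when each library was left out. All genes called numbered 3760 to 5212, with 3923 under DESeq2. Upper-quartile scaling shifted the median of all genes by less than 0.1, to -0.02, and the higher share of calls from 52.4% to 45.8%. Same-numbered libraries showed no strong shared deviation (correlations 0.0868, -0.0377 and -0.0311). The labels do not say what the numbers stand for, and with 3 libraries per group these values cannot settle whether they pair libraries. With the replicate block 5177 genes were called, 4829 of them shared with the 4964, and 8 members, as before. Laminin subunits called were 4 with the block and 4 with no filter beyond 1 count, against 2. Other integrin subunits called were 2 to 5 with each library left out, 2 without control replicate 3, against 4. The cause was not tested. By construction the per-kilobase levels, shares and ratios of all subunits depend on the length used. With coding length the ITGA8 level was 1.67 in control and 15.9 CPM per kilobase after SOX2 siRNA, and its share 6.02%. With merged exon length its level after SOX2 siRNA was 6.72 CPM per kilobase and its share 6.34%. Of 37 other genes tested singly, 6 lost their call in 16 of 480 values and none reversed; ITGB2 gained a call in 5. ITGA4 and 5 other subunits did not pass the filter on low counts and were not tested.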

Other observations

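ITGA8 and ITGB1 lie on the same chromosome, and the protein-coding genes on either side of each were read after the values were seen. NRP1, a co-receptor for semaphorins and vascular endothelial growth factor 171700 bases from ITGB1, rose from 4.18 ± 0.201 to 11.7 ± 0.990 CPM (SD over 3 libraries; 1.49 on the log2 scale, edgeR adjusted p = 3.58e-09). CCDC7, 17445 bases away on the other side, was at 2.37 ± 0.570 and 2.03 ± 0.419 CPM and did not pass the test (edgeR adjusted p = 0.475). Beside ITGA8, FAM171A1, 142887 bases away, stood at 56.6 ± 0.484 and 56.1 ± 1.11 CPM (log2 fold change -0.01, edgeR adjusted p = 0.891). MINDY3, 58045 bases away on the other side, stood at 32.2 ± 1.60 and 36.4 ± 1.65 CPM (0.18, edgeR adjusted p = 0.0212), a call lost under DESeq2 (0.0630) and without control replicate 1 or SOX2 siRNA replicate 2.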
